A study of Mus musculus with 12 samples.

Results

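The mature miRNAs of the miR-125, miR-99/100 and miR-10 families were examined in the quadriceps of mice that lack cofilin-2. They were chosen by name, with star strands left out: mmu-miR-125a-5p, mmu-miR-125b-5p, mmu-miR-99a, mmu-miR-99b, mmu-miR-100, mmu-miR-10a and mmu-miR-10b, 7 of the 1096 miRNA names on the array, written here without the mouse prefix. The samples were 6 wild-type mice (WT1 to WT6) and 6 cofilin-2 null mice (Cfl2-KO, labelled KO1 to KO6), all of strain C57Bl/6 and all taken at postnatal day 7, with no treatment in either group. The methods describe 6 pairs of littermates, but the labels name no litter. Cofilin-2 is the main muscle form of cofilin, a protein that severs and depolymerizes actin filaments, and mutations in its gene cause a myopathy with nemaline bodies. By the labels every WT sample was marked with Cy5 and every KO sample with Cy3, so dye and genotype cannot be told apart in any comparison below.

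miRNAs are short RNAs that guide Argonaute proteins to messenger RNAs, mainly through pairing of the seed, bases 2 to 8 from the 5′ end. Several clusters in the mouse genome each hold a member of the miR-99/100 family, a let-7 and a miR-125, and let-7 and miR-125 are the heterochronic pair first known from worm development, where they bring larval stages to an end. The miR-10 genes lie inside the Hox gene clusters, which set position along the body axis. miR-125b has been described as a brake on myoblast differentiation through Igf2, and miR-99/100 as a family that targets Mtor and Igf1r.

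The mature sequences show how the 7 fall into 3 seed groups and how little separates some of them on an array. All 7 were found in RefSeq (GRCm38.p6), under names that add the arm (5p) to those of miR-99, miR-100 and miR-10 on the array, and miR-351 is printed as the one further tested miRNA with a seed of these groups. The seed is in capitals.
miR-125a-5p: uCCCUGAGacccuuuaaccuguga
miR-125b-5p: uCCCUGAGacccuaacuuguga
miR-351: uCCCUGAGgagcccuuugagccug
miR-99a: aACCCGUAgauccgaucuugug
miR-99b: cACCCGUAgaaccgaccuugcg
miR-100: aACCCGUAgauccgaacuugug
miR-10a: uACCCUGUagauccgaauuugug
miR-10b: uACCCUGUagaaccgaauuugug

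miR-99a and miR-100 differ by 1 base, U16A, counted from the 5′ end with the base of miR-99a first. miR-10a and miR-10b also differ by 1 base, U12A, with miR-10a first. miR-99b departs from miR-99a at 4 positions, A1C, U11A, U16C and U21C. The miR-125 pair shares its first 13 bases. The miR-99/100 and miR-10 groups are related too, since miR-100 and miR-10a share a run of 11 bases, GUAGAUCCGAA, which starts at the end of each seed and runs past it. Probes against sequences this close can bind each other's target, and how far they did so on this array was not tested.

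The 7 miRNAs come from 8 genes at 5 loci of GRCm38.p6, all on the plus strand. Mature miR-99b (chr17:17830194-17830215) and miR-125a-5p (chr17:17830817-17830840) lie with let-7e in a cluster of 692 bases inside Spaca6. Mature miR-99a (chr16:77598940-77598961) lies with let-7c-1 and, at the far end of 47.4 kb, with one of the copies of miR-125b-5p (chr16:77646279-77646300). Mature miR-100 (chr9:41531437-41531458) lies with let-7a-2 and the other copy of miR-125b-5p (chr9:41581940-41581961) in 50.6 kb inside the long noncoding RNA gene Mir100hg. The array cannot tell these copies of miR-125b-5p apart, nor let-7a and let-7c from their copies elsewhere. Mature miR-10a (chr11:96317186-96317208) lies within Hoxb3, with Hoxb5 and Hoxb4 as the nearest coding genes outside it, and mature miR-10b (chr2:74726074-74726096) within Hoxd3 and Hoxd4. The hairpin of Mir125a (chr17:17830812-17830879, plus strand), which carries both arms measured on the array, is shown with its 5p and 3p arms in capitals.
Mir125a: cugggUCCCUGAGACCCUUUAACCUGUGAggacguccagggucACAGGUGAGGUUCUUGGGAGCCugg

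The values are normalized intensities on a linear scale, with a median of 12 to 14 in each sample and a sum of 594311 to 636136. The 370 miRNAs whose mean over the 12 samples reached 32 were tested by limma on log2 intensity, with any value under 1 set to 1. KO1 stood apart from its group, with a mean correlation of 0.848 to the other KO samples across these miRNAs against 0.907 to 0.945 for KO2 to KO6. Of the 4 muscle miRNAs listed as markers, 3 are in the table (miR-133a, miR-133b and miR-206), and their summed intensity was 35765 to 48020 in WT and 31254 to 44055 in KO. The markers of epithelium, neurons and liver were all too dim to be tested, with mean intensities of at most 10.2. The number of arrays limits the precision of every value.

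Of these miRNAs, 6 were bright enough to be tested, and each had a lower mean log2 intensity in KO. At the unadjusted threshold of 0.05 that the methods give, 4 of the 6 were lower in KO (miR-100, miR-125a-5p, miR-99b and miR-125b-5p), against 9.73% of all miRNAs tested that were lower and 19.5% that passed in either direction. None passed after Benjamini-Hochberg adjustment over the 370 miRNAs, by limma or by the t-test that the methods name for the mRNA data. By limma 1.35% of all passed in either direction and 0.27% as lower in KO, and the 6 adjusted p-values from limma ran from 0.0955 to 0.886. The median log2 change of the 6 was -0.64 and that of all miRNAs tested was -0.08, where 56.8% were below 0. With the miRNAs of mean at least 500 fitted alone, 17.4% of those were lower at the unadjusted threshold. In either direction 31.2% of those passed. These bright miRNAs include miR-125a-5p, miR-125b-5p and miR-99b. In no member did all KO samples lie below all WT samples, which was the case for 0.811% of the miRNAs tested, or above them, the case for 1.62%. The table holds total RNA of whole muscle, so fewer cells of a type and less of a miRNA per cell cannot be told apart. The 2 of the 6 that did not pass were miR-99a and miR-10b, and miR-10a was too dim to be tested.

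**Figure D1:**
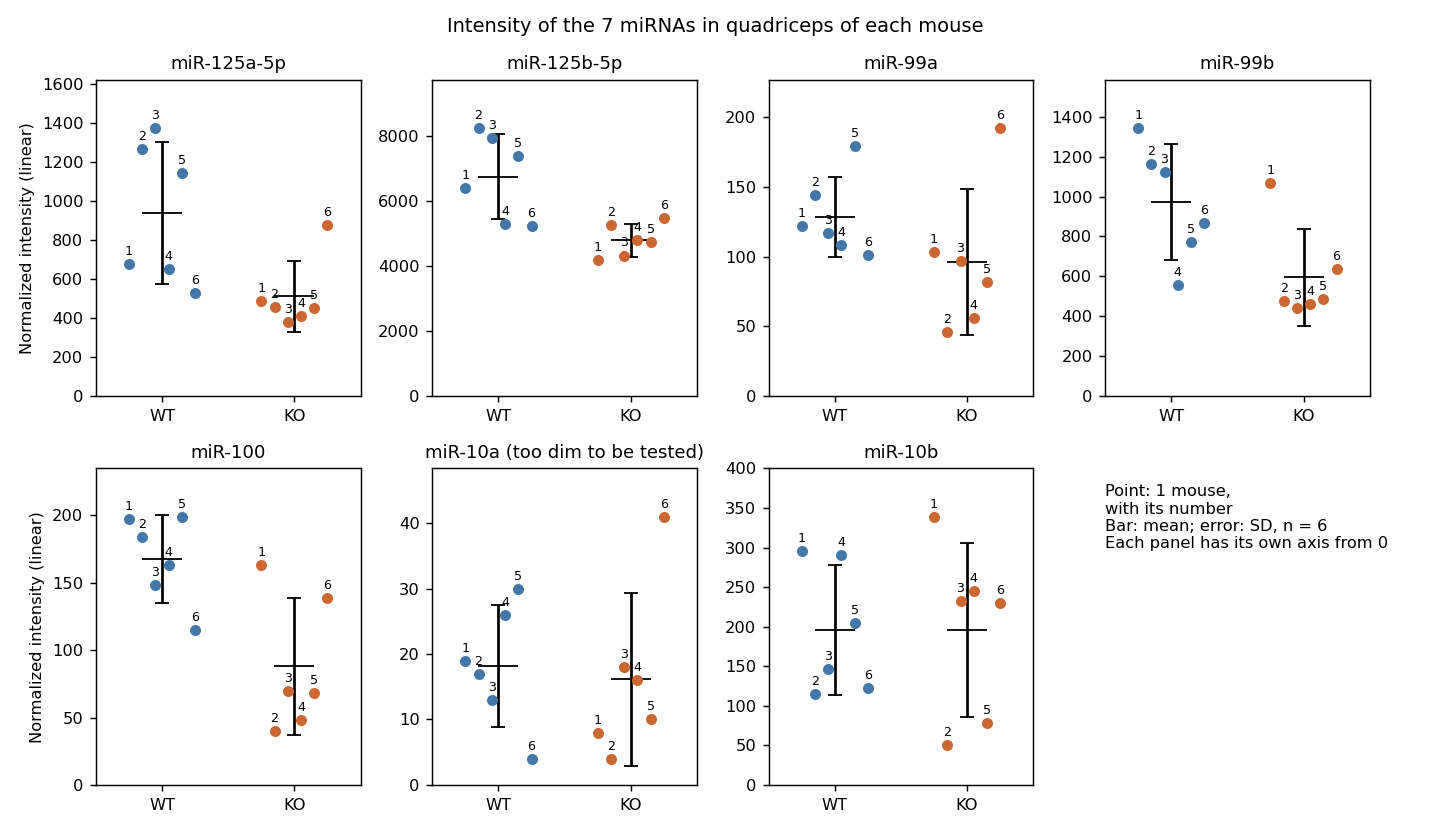
Normalized intensity of each miRNA (linear scale, each panel with its own axis from 0) in the 6 WT and 6 KO mice, with points numbered by mouse, the mean as a bar and the SD as an error bar. In miR-125a-5p, 5 of the 6 KO mice lie below every WT mouse and KO6, at 875, lies among them, while in miR-10b the KO mice run from 50 to 339, on both sides of the WT range of 115 to 296.

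miR-125a-5p, which carries the seed of the worm miRNA lin-4, was at 675, 1264, 1373, 652, 1145 and 526 in WT1 to WT6 and at 488, 458, 382, 411, 452 and 875 in KO1 to KO6. Of the KO samples, 5 form a narrow band below every WT sample, and KO6 lies inside the WT range. The WT samples fall apart too, with WT2, WT3 and WT5 at 1145 to 1373 and the others at 526 to 675. The 6 WT mice averaged 939.2 ± 363 (SD) and the 6 KO mice 511.0 ± 182 (SD). By limma KO minus WT came to -0.84 log2 units (SE 0.293), with a p of 0.0125 that became 0.127 after adjustment. The two-sided exact permutation test of the mean log2 intensity gave p = 0.0260, where 0.0022 is the smallest that 6 samples against 6 allow.

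miR-125b-5p, the brighter probe of the family and the one with a gene in each of the chr9 and chr16 clusters, was at 6416, 8260, 7952, 5318, 7397 and 5252 in WT1 to WT6. In KO1 to KO6 it was at 4184, 5265, 4333, 4825, 4744 and 5481. The KO samples were the more uniform, with a highest value 1.31 times the lowest against 1.57 times in WT, and 4 of the 6 lay below every WT sample. The averages were 6766 ± 1308 (SD) over 6 WT mice and 4805 ± 506 (SD) over 6 KO mice. The limma difference was -0.48 log2 units (SE 0.184), with an adjusted p of 0.160. The exact permutation p was 0.0108. KO2 and KO6 were above WT6, the lowest WT mouse. The limma p, 0.0216 unadjusted, was 0.0540 without WT2, 0.0529 without WT3 and 0.0508 with no filter on dim miRNAs, which ends the call.

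miR-351, an X-linked miRNA with the same seed as miR-125, was at 1498 to 2896 in WT and at 1586 to 2505 in KO. The groups lay over each other, and limma put KO at -0.21 log2 units from WT (SE 0.219, adjusted p = 0.685).

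miR-100, from the chr9 cluster, had the log2 change farthest from 0 of the 6, at rank 4 among the falls of all 370 miRNAs, although with a pseudocount of 50 it was -0.72 and miR-125a-5p -0.78. It was at 197, 184, 148, 163, 199 and 115 in WT1 to WT6 and at 163, 40, 70, 48, 68 and 139 in KO1 to KO6. In KO, 4 mice sat between 40 and 70, below every WT mouse, whereas KO1 and KO6 were at WT levels. WT averaged 167.7 ± 32.5 (SD, 6 mice) and KO 88.0 ± 50.7 (SD, 6 mice). The limma difference was -1.10 log2 units (SE 0.337), its p 0.00590 before and 0.0955 after adjustment, and the exact permutation p 0.0195. Without KO1, the sample that stood apart over the whole array, the log2 change was -1.32 and the adjusted p = 0.0222 from limma. There 13.2% of all miRNAs tested passed. With any other sample left out the adjusted limma p was 0.0688 to 0.215.

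miR-99b, encoded beside miR-125a, was at 1343, 1165, 1123, 559, 774 and 867 in WT1 to WT6. Its KO values were 1067, 476, 441, 461, 486 and 637 in KO1 to KO6. KO2 to KO5 lay in a band of 441 to 486 below all WT samples, KO6 was above WT4 only, and KO1 reached the middle of the WT range. Average intensity was 971.8 ± 289 (SD, 6 mice) for WT against 594.7 ± 242 (SD, 6 mice) for KO. That is -0.73 log2 units by limma (SE 0.277), with p = 0.0204, an adjusted p of 0.157 and an exact permutation p of 0.0368. Leaving out KO1 moved the log2 change to -0.91 and the adjusted limma p to 0.0308, where 13.2% of all miRNAs tested passed. With any other sample left out the adjusted limma p was 0.0935 to 0.306. After quantile normalization the unadjusted limma p was 0.0544, which ends the call.

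miR-99a was at 122, 144, 117, 108, 179 and 101 in WT1 to WT6 and at 103, 46, 97, 56, 82 and 192 in KO1 to KO6. KO6 was here the highest of all 12 mice, and 4 KO mice were below every WT mouse. The spread in KO was 4.17 times from lowest to highest against 1.77 times in WT. The 6 WT mice averaged 128.5 ± 28.8 (SD) and the 6 KO mice 96.0 ± 52.1 (SD). The limma difference of -0.55 log2 units (SE 0.312) passed neither threshold (adjusted p = 0.345), and the exact permutation p was 0.123. Without KO6 it was -0.78 with an adjusted p = 0.0932 from limma.

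miR-10b, from the HoxD locus, was at 296, 115, 146, 291, 205 and 123 in WT1 to WT6 and at 339, 50, 232, 245, 78 and 230 in KO1 to KO6. The highest and the lowest of the 12 mice were both KO, and the group means were nearly equal, 196.0 ± 81.8 (SD) for the 6 WT and 195.7 ± 110 (SD) for the 6 KO mice. By limma the difference was -0.18 log2 units (SE 0.463, adjusted p = 0.886), with a 95% interval that reached from -1.17 to 0.82. Its sign turned without KO2 and without KO5. miR-10a, from the HoxB locus, had intensities of 4 to 30 in WT and 4 to 41 in KO, near the median of 12 to 14 of all names on the array, and was left untested.

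**Figure D2:**
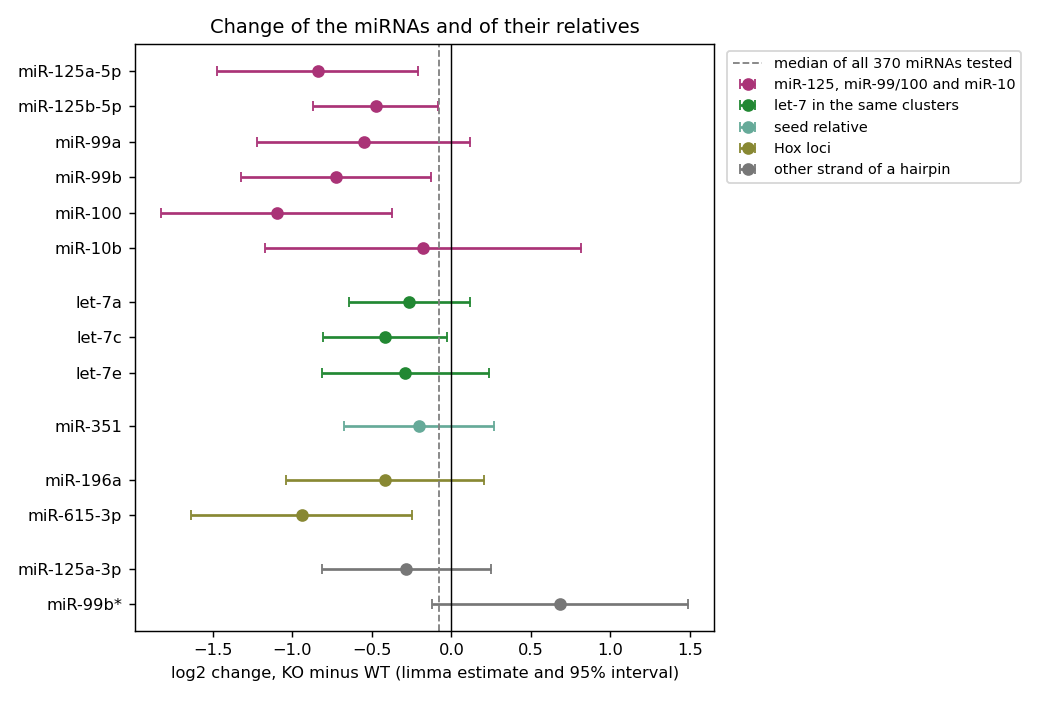
limma log2 change, KO minus WT, with its 95% interval for the 6 tested miRNAs and for the relatives bright enough to be tested, with the median of all 370 miRNAs tested as a dashed line. The intervals of miR-125a-5p, miR-125b-5p, miR-99b and miR-100 lie below 0, as do those of let-7c and miR-615-3p, while those of miR-99a and miR-10b include 0.

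Whether relatives changed unequally was tested on the difference of their log2 intensities in each mouse, in 11 pairs from one family or one cluster. One pair had an unadjusted exact permutation p under 0.05 and none an adjusted p under it. That pair was miR-99a and miR-100, which differ by a single base: miR-100 was lower in KO by more than miR-99a, by 0.55 on the log2 scale (95% interval 0.12 to 0.98), with miR-99a minus miR-100 in 5 of the 6 KO mice above every WT mouse (exact permutation p = 0.0195, adjusted over the 11 pairs 0.214). Without KO1 the difference was 0.71 and the adjusted exact permutation p was 0.0476. With any other sample left out that p was 0.198 to 0.401. Between miR-125a-5p and miR-125b-5p the difference was -0.36 (95% interval -0.80 to 0.07, exact permutation p = 0.0909, adjusted 0.333). Between miR-99b and miR-125a-5p, the neighbours inside Spaca6, it was 0.11 (95% interval -0.62 to 0.85, exact permutation p = 0.745, adjusted 0.745).

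The let-7 partners of the 3 clusters had lower KO means too, each with a log2 change closer to 0 than those of its neighbours, though no such difference passed the adjusted test. let-7a had a log2 change of -0.26 (adjusted p = 0.451), let-7c one of -0.42 (adjusted p = 0.220) and let-7e one of -0.29 (adjusted p = 0.567), all from limma, and let-7c alone passed the unadjusted threshold. By limma that call was lost with the replicate block (unadjusted 0.0567, adjusted p = 0.226), with quantile normalization and with no filter, and also when WT1, WT2, WT3, WT4, WT6, KO3 or KO5 was left out. let-7c was at 9689 to 12294 in WT and 6388 to 10610 in KO, with 5 of the 6 KO mice below every WT mouse. The widest gap was that of miR-100 over let-7a, at -0.83 on the log2 scale (95% interval -1.73 to 0.06, exact permutation p = 0.0649, adjusted 0.333). Without KO1 it was -1.08 with an adjusted exact permutation p = 0.0476. With any other sample left out that p was 0.198 to 0.587. For miR-125b-5p against let-7c the difference was -0.06 (95% interval -0.43 to 0.31). Over the whole let-7 group with miR-98, 8 of 9 were below 0, against 56.8% of all miRNAs tested, and 4 of 9 were lower at the unadjusted threshold, against 9.73%, with none past the adjusted one.

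Of the other strands of these hairpins, 8 names are in the table and 2 were bright enough to be tested. miR-125a-3p was at 32 to 73 in WT and 32 to 53 in KO, -0.28 log2 units apart by limma (SE 0.248, adjusted p = 0.588). miR-99b*, the star strand of the miR-99b hairpin, had the opposite sign from miR-99b, with 20, 24, 20, 21, 22 and 35 in WT1 to WT6 and 13, 80, 41, 47, 55 and 24 in KO1 to KO6. In KO, 4 mice were above every WT mouse, and KO1, where miR-99b was highest among the KO mice, was the lowest of all 12. limma gave 0.68 log2 units (SE 0.374, adjusted p = 0.336), and without KO1 0.99 with an adjusted p of 0.0391. Without KO1, 13.2% of all miRNAs tested passed. The log2 change of miR-99b* was 0.46 without KO2, 0.48 with a floor of 32 and 0.31 with a pseudocount of 50. None of these passed the adjusted threshold.

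Of the 4 miRNAs listed for the Hox loci beside miR-10, miR-196a and miR-615-3p were tested. miR-196a, encoded among the HoxB and HoxC genes, was at 216 to 297 in WT and at 180, 143, 154, 208, 127 and 487 in KO1 to KO6. In KO, 5 mice lay below every WT mouse and KO6 above all of them, and limma gave -0.42 log2 units (SE 0.291, adjusted p = 0.468). Without KO6 it was -0.69 and passed the unadjusted but not the adjusted threshold (adjusted p = 0.0688). miR-615-3p, from an intron of the HoxC cluster, was dim, with 29 to 81 in WT and 12 to 44 in KO, which limma put at -0.94 log2 units (SE 0.323, adjusted p = 0.127). It was lower at the unadjusted threshold, as 1 of the 2 tested, against 9.73% of all miRNAs tested. Its size depended on how low values were treated, at -0.57 with a floor of 32 and -0.39 with a pseudocount of 50.

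**Figure D3:**
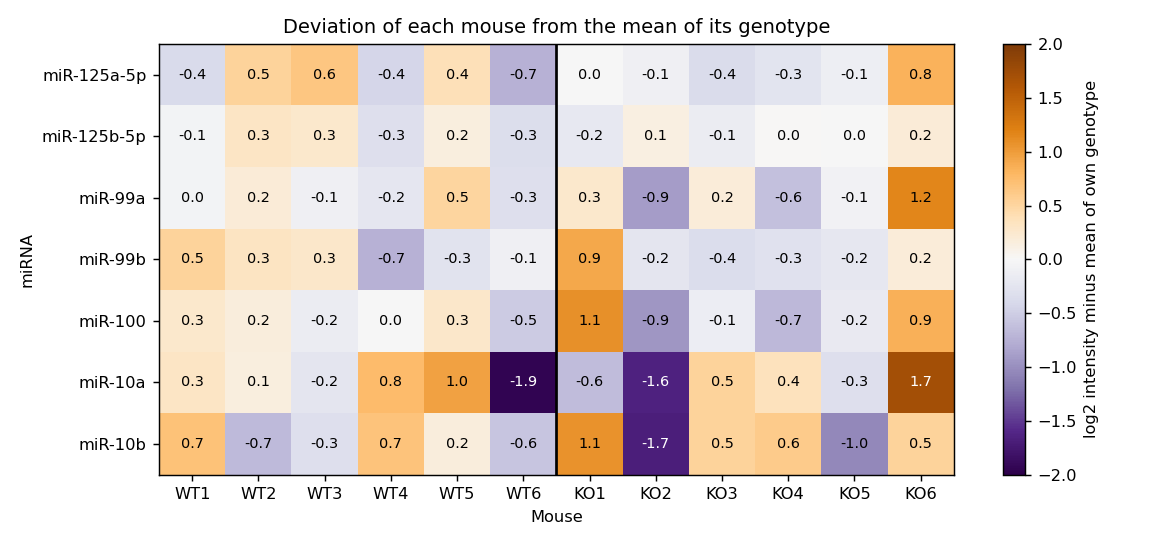
log2 intensity of each miRNA in each mouse minus the mean of that mouse's genotype, with orange above and purple below the mean. KO6 is above its group in all 7 rows, KO2 is below in 6 of them, and WT6 is below in every row.

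The same mice recurred at the ends of the groups. KO6 had the highest KO value of 4 of the 7 (miR-125a-5p, miR-125b-5p, miR-99a and miR-10a) and KO1 that of the remaining 3. KO2 had the lowest KO value of 4, and WT6 the lowest WT value of 5. How often each mouse lay at such an end over all miRNAs tested was not counted. Averaged over the 6 tested miRNAs, KO6 was 0.62 and KO1 0.52 above the KO mean on the log2 scale and KO2 0.62 below it, and WT6 was 0.43 below the WT mean. Over all miRNAs tested the median difference from the own group lay between -0.02 and 0.05 in each of the 12 samples. The values were already normalized, so this median cannot tell whether the shifts were particular to these miRNAs. Across all miRNAs tested, KO1, KO2 and KO6 had mean correlations of 0.848, 0.907 and 0.909 to the other KO samples. For KO3 to KO5 these were 0.925 to 0.945. Without KO6 the median log2 change of the 6 was -0.77 and 5 of them were lower at the unadjusted threshold, against 11.1% of all miRNAs tested. Without KO1 the median was -0.72 with 4 lower, against 15.4% of all.

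Across mice of a genotype, the correlation passed the adjusted threshold in 2 of the 5 pairs of one family and in none of the 9 pairs of one cluster. Each value was first taken relative to the mean of its genotype, and 14 relations over the 12 mice were computed in all, with permutation p-values from 100000 shuffles within genotype. Where r is given without 2 mice, those were the farthest from the median of the miRNA named first. Mice farthest out in the other miRNA were not chosen for leaving out. For miR-125a-5p and miR-125b-5p, which lie on different chromosomes, Pearson's r was 0.851 (permutation p = 0.00279, adjusted 0.0391) and Spearman's rho 0.853 (permutation p = 0.00655), and r was 0.838 without KO6 and WT3. For miR-99a and miR-100, also on different chromosomes, r was 0.841 (permutation p = 0.00610, adjusted 0.0427) and rho 0.902 (permutation p = 0.000520), with r = 0.730 without KO6 and KO2. Within WT alone these r were 0.953 and 0.746, and within KO alone 0.619 and 0.857. The adjusted permutation p was 0.131 or more for every other relation. For miR-99b and miR-100 r was 0.615, and 0.318 without KO1 and WT1. For miR-10a and miR-10b it was 0.594, and 0.259 without WT6 and KO2. miR-99a and miR-99b had r = 0.327. Outside the families, r within genotype was 0.871 for miR-125a-5p with miR-434-3p and 0.891 for miR-99a with miR-106a. These partners were picked as the most alike of all miRNAs tested. How common such values are among pairs of unrelated miRNAs was not tested.

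Among neighbours in the genome r within genotype ran from -0.242 to 0.338. miR-99b and miR-125a-5p, within one short cluster, had r = 0.338 (permutation p = 0.297) and rho 0.392 (permutation p = 0.235), although r was 0.714 without KO1 and WT1. miR-99a and miR-125b-5p had r = 0.246, and miR-100 and miR-125b-5p r = 0.0433. In WT alone these were 0.676 and 0.507, and in KO alone 0.0374 and -0.257. With a let-7 as partner r ran from -0.242 for miR-100 and let-7a to 0.173 for miR-125b-5p and let-7c. In WT alone the let-7 values ran from -0.893 (miR-125a-5p and let-7e) to -0.155 (miR-125b-5p and let-7c). In KO alone they ran from -0.177 (miR-100 and let-7a) to 0.733 (miR-125b-5p and let-7a). For miR-125a-5p and let-7e r was 0.520 in KO alone. A value near 0 over the 12 mice can thus join opposite signs in WT and KO. The r of a single genotype carry no test. The difference between the family and the cluster values was not tested, and the part that binding of one miRNA to the other's probe had in the family values was not tested.

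**Figure D4:**
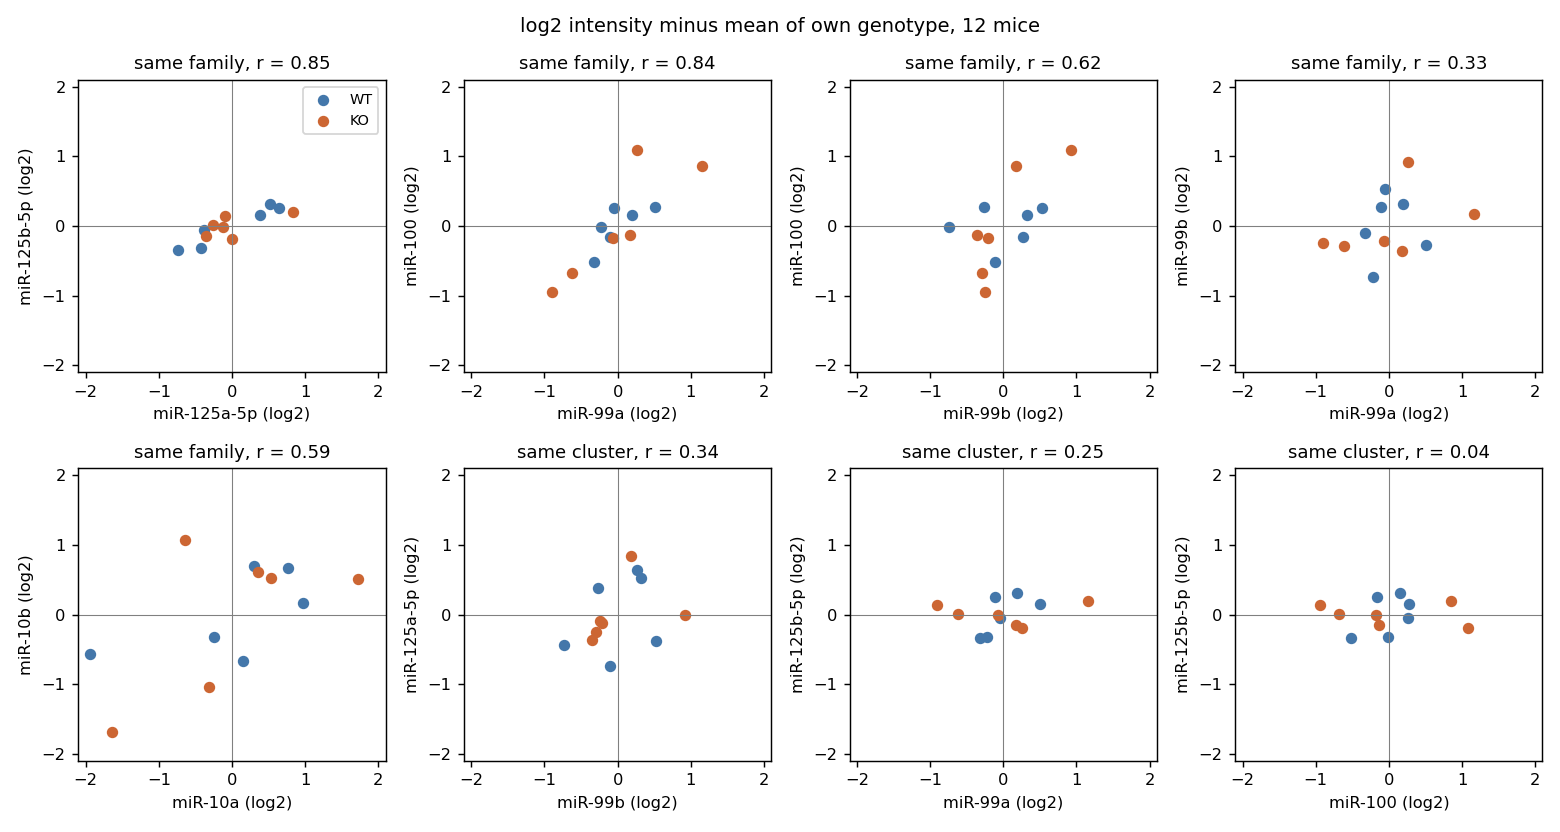
log2 intensity minus the mean of the own genotype for pairs of these miRNAs in the 12 mice, 5 pairs of one family and 3 of one cluster, with Pearson's r above each panel. The points of miR-125a-5p with miR-125b-5p and of miR-99a with miR-100 run along a line (r of 0.851 and 0.841), and those of miR-100 with miR-125b-5p do not (r of 0.0433).

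Among the 370 miRNAs tested, the one outside the 3 families whose log2 intensity over the 12 mice was most like the mean of the 6 was miR-126-3p, the miRNA of endothelial cells, with a Pearson r of 0.951, and 0.913 after removal of the genotype means. It was followed by miR-25 (0.913), miR-139-5p (0.890), miR-148a (0.886) and miR-20a (0.869). By single miRNA the most alike were miR-126-3p for miR-100 (0.915), miR-434-3p for miR-125a-5p (0.923), miR-181b for miR-125b-5p (0.893), miR-106a for miR-99a (0.907), miR-329* for miR-99b (0.908), miR-379* for miR-10a (0.833) and miR-146a for miR-10b (0.896). These are the highest of many values and carry no test.

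Markers of other cells were measured beside these miRNAs. miR-126-3p, 1 of the 2 endothelial markers and the only one of them above the dim range, was at 2230 to 4741 in WT and 760 to 2705 in KO. Its log2 change was -1.20 (adjusted p = 0.0615 from limma). miR-451 of red blood cells, 1 of 5 blood markers and the only one tested, was at 43 to 417 in WT and 16 to 318 in KO (log2 change -0.94, adjusted p = 0.497 from limma, past neither threshold), and its r with miR-100 within genotype was 0.906. The summed intensity of the blood markers was 77 to 438 in WT and 31 to 339 in KO, and that of the endothelial markers 2233 to 4745 in WT and 765 to 2709 in KO. The muscle miRNA miR-133a had r = 0.810 with miR-125b-5p and 0.687 with miR-125a-5p within genotype, and 0.0579 with miR-100. Its log2 change was -0.35 (adjusted p = 0.493 from limma). miR-133b gave r = 0.783 and 0.641 with miR-125b-5p and miR-125a-5p, whereas miR-206, the brightest muscle marker, gave -0.207 and -0.0652 and a log2 change of -0.08 (adjusted p = 0.855 from limma). With the others miR-206 had r = 0.783 (miR-99b), 0.457 (miR-100), 0.348 (miR-10b), -0.0342 (miR-99a) and -0.224 (miR-10a). Of the smooth muscle markers, whose sum was 3555 to 4909 in WT and 3241 to 6241 in KO, miR-143 had a log2 change of -0.02 (adjusted p = 0.977) and miR-145 one of -0.60 (adjusted p = 0.261), both from limma. Within genotype miR-143 had r = -0.307 with miR-125b-5p and 0.638 with miR-99b, and miR-145 had r = 0.741 with miR-99b and 0.629 with miR-100. The r values named here were picked from those of all 7 miRNAs with these markers and carry no test. The part of these cells in the values of the 7 miRNAs was not tested.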

How the data were processed

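Total RNA of quadriceps was profiled on an array for the mouse miRNAs of miRBase version 17 by a service laboratory. The values the authors deposited are whole-number intensities on a linear scale, already normalized, of 1096 miRNA names in each of the 12 samples. The normalization, background correction and handling of repeated spots are not given in the sources used here. Cfl2 itself is not on a miRNA array, so genotypes were not checked. All columns were mapped by sample, and none was left over.

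Any intensity under 1 was set to 1 before log2 was taken. Names with a mean of at least 32 were fitted with limma 3.58.1 in R 4.3.3 (lmFit and eBayes, two-sided, KO minus WT), with Benjamini-Hochberg adjustment over all of them and a threshold of 0.05. The fit was tested on simulated data with independent miRNAs and an equal spread in both groups. Those data held no sample that stood apart as KO1 did, so that case was not tested. Pair differences and single miRNAs were tested by exact permutation over the 924 assignments of the samples (scipy 1.17.1). Intervals of pair differences use the pooled spread of the mice. Sequences and positions are those of RefSeq for GRCm38.p6. Plots were drawn with matplotlib 3.10.9.

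The miRNAs, pairs and lists were chosen with earlier results of these data known. The miRNAs named are the 7, their other strands, the let-7 partners, seed relatives, Hox-locus miRNAs and, by highest Pearson r, the most alike. The alternatives left out each sample in turn, blocked on the replicate number, changed the floor (32), the pseudocount (50) or the filter (none, or a mean of 500), centred on medians, or applied quantile or cyclic loess normalization. Others used array weights, trend and robust estimation, the t-test that the methods name for the mRNA data, or ratios of arithmetic means. By the methods each sample is a separate mouse.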

Additional observations from a re-analysis of the deposited data

Results flagged for a closer look

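A sample was looked at again where its gap to the nearest of its group, as a share of the group's range on the log2 scale, exceeded Dixon's limit for 6 values at the 95% level. Of 42 groups, 5 met this, where chance gives about 2.1. The groups share the same mice and hold related miRNAs, so they are not independent, and an excess over chance was not tested. KO6 had 875 for miR-125a-5p where the other KO mice had 382 to 488 (gap 0.705). miR-196a was at 487 in KO6 and at 127 to 208 in the others (gap 0.633). With KO6 left out, limma gave -1.01 log2 units for miR-125a-5p (adjusted p = 0.0688) and -0.69 for miR-196a (adjusted p = 0.0688). In WT, miR-99b* was at 35 in WT6 and 20 to 24 in the others (gap 0.674), let-7c at 9689 in WT5 against 11299 to 12294 (gap 0.646), and let-7b at 5533 in WT5 against 6798 to 7343 (gap 0.728).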

How the results depend on the processing

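Of 141 values recomputed for the 6 tested miRNAs, 138 kept the direction reported, and the exceptions were miR-10b with array weights (0.0483) and without KO2 or KO5. With a sample left out the log2 change of miR-10b ran from -0.39 to 0.16. Of the 6, 0 passed the adjusted threshold as reported, 4 did with array weights, where 31.1% of all miRNAs passed, and 0 to 2 with a sample left out. The 2 were miR-100 and miR-99b without KO1, where 13.2% of all passed. The count past the unadjusted threshold, 4, was 3 to 5 under the alternatives, while 11.2% (no filter) to 42.2% (array weights) of all miRNAs passed. It was 5 with array weights and without KO6. It was 3 without miR-125b-5p (no filter, without WT2 or WT3) and without miR-99b (quantile normalization). With a mean of 500 it was also 3, where only 3 were tested and 31.2% of all such miRNAs passed. With no filter miR-10a had a log2 change of -0.30 (adjusted p = 0.896 from limma). The array weights gave KO1 the lowest weight, 0.156, and otherwise the cause was not tested. Pairs past the unadjusted exact test numbered 1 to 2 with a sample left out (2 without WT6, KO1 or KO6). The pair differences that turned sign without a sample ran from -0.0199 to 0.33 (miR-99a minus miR-99b), -0.0715 to 0.30 (miR-99b minus miR-125a-5p), -0.30 to 0.0748 (miR-99a minus let-7c) and -0.14 to 0.0186 (miR-125b-5p minus let-7c).

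The methods name littermate pairs, but equal sample numbers were not shown to mark them. The deviations of equal-numbered samples correlated at -0.453 to 0.594, and 2 of 6 WT samples matched their own number best. Whether a WT and a KO sample, marked with different dyes, shared an array is not stated either. With the replicate block 4 of the 6 miRNAs passed the unadjusted and 0 the adjusted threshold, against 24.1% and 1.08% of all miRNAs (13.0% lower unadjusted), and 1 pair passed the unadjusted exact test. Intensities near the array median of 12 to 14, as for miR-10a and most star strands, limit what can be compared.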

Other observations

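The star and 3p strands that were not tested lay at the dim end of the array. miR-99a* was at 2 to 4 in WT and 0 to 4 in KO, miR-100* at 2 to 8 and 1 to 5, miR-10a* at 2 to 8 and 1 to 6, and miR-125b-2-3p at 0 to 7 and 3 to 6. miR-125b-1-3p was at 53 in WT4 and at 2 to 6 in every other sample. miR-10b* was at 10 to 26 in WT and 3 to 31 in KO, highest in WT1 and KO1, the mice with the highest miR-10b.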
